A study of Mus musculus with 38 samples.

Results

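The genes of BAFF, APRIL and their receptors were examined in sorted cells of the bone-lining niche and in myeloma cells. The list holds 5 genes, and members were the rows of the RPKM table that carry one of these symbols. Of the 13260 genes in the table, 3 were members: Tnfsf13b, which encodes the ligand BAFF, Tnfrsf13b, which encodes the receptor TACI, and Tnfrsf13c, which encodes the BAFF receptor. Tnfsf13 (APRIL) and Tnfrsf17 (BCMA) were not analysed here. The question was which niche cells carry transcripts of the ligands, and whether the myeloma cells beside them carry transcripts of the receptors.

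RNA-Seq values came from 38 libraries of 100 sorted cells each. Mice of strain C57Bl/KaLwRijHsd, aged 8 to 10 weeks, received PBS or 1000000 5TGM1-GFP cells intravenously, and all were culled on day 23. 5TGM1 is a mouse myeloma line, here 1 line marked with green fluorescent protein. Cells negative for CD45 and Ter119 were sorted from crushed and collagenase-digested femora and tibiae as endothelial cells (CD31+), stromal progenitors (CD31- and Sca1+) or osteoprogenitors (CD31- and ALCAM+). Healthy and myeloma-bearing mice each gave 5 endothelial, 5 stromal and 4 osteoprogenitor libraries. GFP+ myeloma cells gave 5 libraries from the bone lining and 5 from the central marrow. A letter names each library, and the labels do not say that a letter is 1 mouse, so p-values measure the spread between libraries, which may in part be technical.

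BAFF is a cytokine of the TNF family that keeps maturing B cells alive. It is made as a membrane protein and can be cut free by a furin-type protease. It binds the BAFF receptor, TACI and BCMA, whereas APRIL binds TACI and BCMA and also docks on heparan sulphate chains of proteoglycans such as syndecan-1. The receptors recruit TRAF adaptors and feed the NF-kB pathways. Stromal cells and myeloid cells of the marrow are known sources of these ligands, and plasma cells and myeloma cells are known for using them as survival signals.

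In GENCODE vM21 on GRCm38, Tnfsf13b (ENSMUSG00000031497) lies on chromosome 8 from 10006467 to 10039072 on the plus strand, and its longest coding transcript has 7 exons. Tnfrsf13b (ENSMUSG00000010142) lies on chromosome 11 from 61126755 to 61149372 on the plus strand, with 5 exons. Tnfrsf13c (ENSMUSG00000068105) is a compact gene of 3 exons on chromosome 15, from 82221743 to 82224369 on the minus strand. A transcript of unknown coding status, Gm44789, lies on the opposite strand inside Tnfsf13b, and the pseudogene Gm12269 lies on the opposite strand inside Tnfrsf13b. The strand of the reads is not given in the sources used here, so reads from those stretches cannot be assigned to a strand.

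RefSeq start regions of the 3 genes are shown because the ligand and the receptors were read in different cells. Each holds 250 bases before and 50 after a start, written 5′ to 3′ on the strand of the gene in build GRCm38.p6. Capitals mark matches on either strand to GAAANNGAAA, the core of an interferon-stimulated response element, or to GGGCGG, the GC box. The Tnfsf13b region is at chr8:10006383-10006682, from the second of 2 starts listed. The Tnfrsf13b region is at chr11:61126505-61126804, and the Tnfrsf13c region at chr15:82224331-82224630.
Tnfsf13b: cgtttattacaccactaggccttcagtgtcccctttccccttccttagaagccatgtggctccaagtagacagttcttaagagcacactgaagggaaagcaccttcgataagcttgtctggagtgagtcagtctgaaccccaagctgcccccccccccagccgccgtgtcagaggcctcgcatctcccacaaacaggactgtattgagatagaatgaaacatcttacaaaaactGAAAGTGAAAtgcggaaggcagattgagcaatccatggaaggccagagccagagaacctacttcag
Tnfrsf13b: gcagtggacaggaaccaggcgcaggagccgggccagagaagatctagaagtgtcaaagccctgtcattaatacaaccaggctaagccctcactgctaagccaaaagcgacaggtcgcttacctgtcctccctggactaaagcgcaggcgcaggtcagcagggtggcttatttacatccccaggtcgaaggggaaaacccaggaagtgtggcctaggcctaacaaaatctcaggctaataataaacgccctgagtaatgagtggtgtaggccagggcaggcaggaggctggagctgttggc
Tnfrsf13c: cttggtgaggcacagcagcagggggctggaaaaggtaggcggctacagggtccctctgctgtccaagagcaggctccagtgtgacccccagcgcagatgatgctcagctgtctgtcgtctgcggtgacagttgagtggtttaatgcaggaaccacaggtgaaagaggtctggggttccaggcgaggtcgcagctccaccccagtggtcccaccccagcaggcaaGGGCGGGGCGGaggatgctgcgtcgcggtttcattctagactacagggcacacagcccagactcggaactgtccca

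The Tnfsf13b region shown held 1 match to GAAANNGAAA, which was present in 3.44% of 32851 such regions. The region of the other listed start, at chr8:10006217-10006516, held 0 matches, so the match depends on which start is taken. The Tnfrsf13c region held 2 overlapping GC boxes, present in 35.7% of all regions. The Tnfrsf13b region held neither. None of the regions held the B cell octamer ATGCAAAT (1.74% of all regions), a TATAAA box (13.6%), a CCAAT box (37.4%) or the NF-kB consensus (8.46%). These are matches of letters in these windows only.

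Library totals ran from 9735031 to 34883291 reads on genes. The read count behind each RPKM value was recovered and is given beside it. For scale, 3 reads of Tnfsf13b in a stromal library were worth 0.0681 to 0.129 RPKM. Sorted identities were checked with marker lists. Endothelial markers summed to 2276 RPKM or more in every endothelial library and to 12.1 RPKM or less in every stromal library. Stromal markers summed to 33049 RPKM or more in stromal libraries and 23140 or less in osteoprogenitor libraries, with Dcn the highest in both. They also summed to 2251 to 8781 RPKM in endothelial libraries, where Ly6a, the gene of Sca1, was the highest. Osteoprogenitor markers summed to 10336 RPKM or more in osteoprogenitor libraries and 3359 or less in stromal libraries, where Ibsp was the highest. Plasma cell markers summed to 3941 RPKM or more in myeloma libraries and to 633 RPKM or less in niche libraries, where Xbp1 was the highest. The B cell markers in the table, Cd79b and Cr2, summed to 278 RPKM or more in every myeloma library and at most 0.741 RPKM in any niche library. The stromal libraries L (healthy) and E (myeloma-bearing) held 7233 and 8061 RPKM of neutrophil markers, against at most 180 in any other niche library.

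BAFF transcripts were found in stromal progenitors, and in only some of the libraries. In healthy mice, stromal library C had 11.2 RPKM of Tnfsf13b (374 reads) and library O had 29.4 RPKM (1114 reads), while L, M and N had 0 reads. In myeloma-bearing mice, stromal library D had 47.8 RPKM (1109 reads), E had 22.9 RPKM (1007 reads) and I had 65.7 RPKM (2784 reads), while G and J had 0 reads. The gene was therefore either plain or unread: 5 of 10 stromal libraries had 374 reads or more, and 5 had none. A count of 0 in those 5 libraries allows up to 0.0809 to 0.106 RPKM each, counting error only. PCR copies were not marked by molecular identifiers, so reads are not independent molecules.

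**Figure D1:**
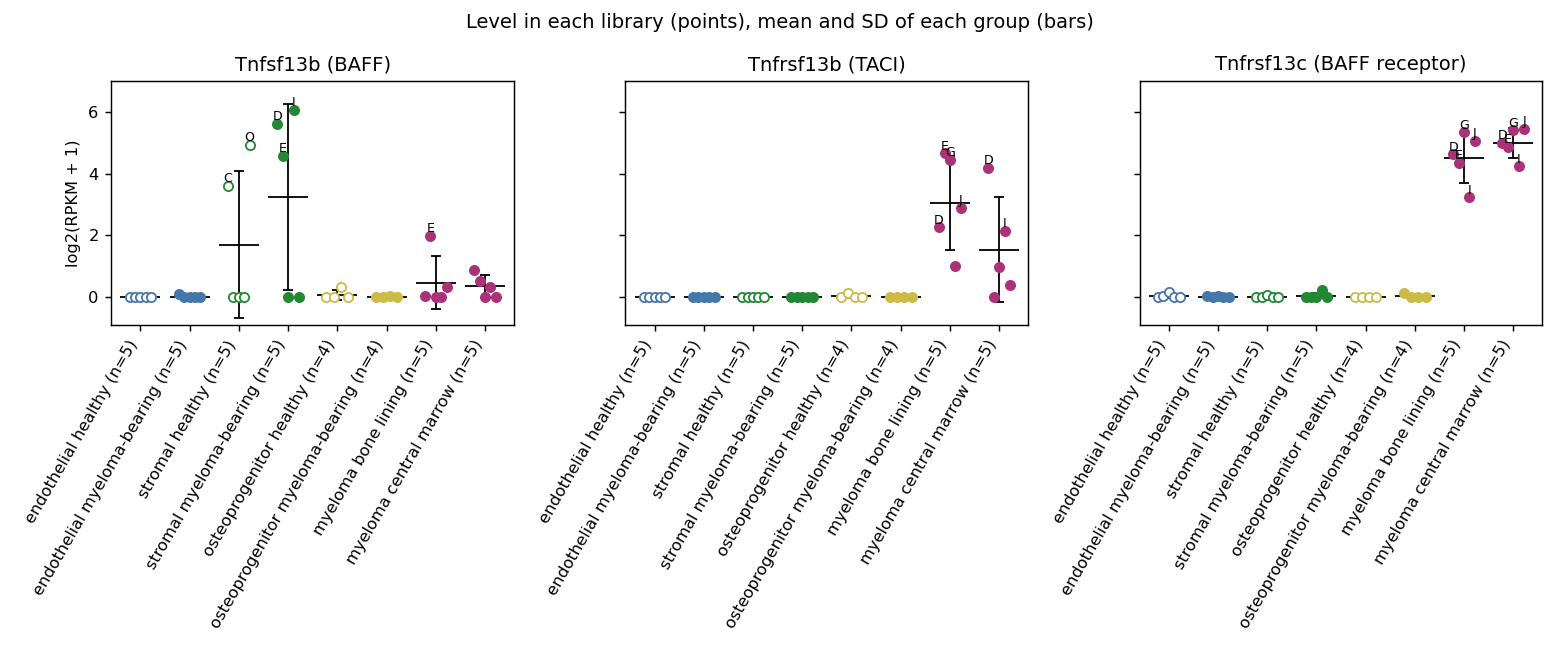
Level of each gene, as log2(RPKM + 1), in each of the 38 libraries by group. Open points are healthy mice, filled points myeloma-bearing mice, letters name libraries above 1 on this axis, and the bars give the mean and SD. Tnfsf13b is seen in 2 of 5 healthy and 3 of 5 myeloma-bearing stromal libraries, and both receptors are seen in myeloma cells.

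The other niche cells carried almost no BAFF transcript. The 10 endothelial libraries held 2 reads of Tnfsf13b in all, both in library D of a myeloma-bearing mouse. The 8 osteoprogenitor libraries held 8 reads, 7 of them in healthy library N (0.255 RPKM) and 1 in library I. The mean was 17.7 ± 23.5 RPKM in stromal libraries (SD, n = 10), 0.0364 ± 0.0891 in osteoprogenitor libraries (n = 8) and 0.00631 ± 0.0199 in endothelial libraries (n = 10). In bulk libraries a larger share of cells with a transcript and more transcript per cell cannot be told apart.

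On the log2(RPKM + 1) scale, which understates changes of low genes, Tnfsf13b was lower in endothelial than in stromal libraries by a difference of -2.47 (SE 0.61, limma adjusted p = 0.00209 over 12683 genes). It was called, at an adjusted p below 0.1 and an absolute log2 difference above 1, as were 25.5% of all genes in that comparison. The groups overlapped, since 5 stromal libraries had no read. An exact two-sided permutation test of this gene alone, added after the data were seen, gave p = 0.0325 unadjusted for 10 against 10 libraries. Within each condition, at 5 against 5, the same exact test gave p = 0.444 in healthy and p = 0.167 in myeloma-bearing mice. With so many libraries at 0 reads, the p-values of this test follow from how many stromal libraries had reads. They restate that count and add nothing to it. In healthy libraries alone the difference was -1.71 and was not called (limma adjusted p = 0.201), and in libraries of myeloma-bearing mice alone it was -3.23 and was called (limma adjusted p = 0.00740). The test of the difference between these conditions is given with the change with myeloma.

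Tnfsf13b was higher in stromal than in osteoprogenitor libraries by 2.43 (SE 0.64, limma adjusted p = 0.0135), a comparison that called 8.48% of all genes. The call held in libraries of myeloma-bearing mice alone (difference 3.24, limma adjusted p = 0.0346). It was lost when only the stromal and osteoprogenitor libraries entered the fit (difference 2.43, SE 0.86, limma adjusted p = 0.113) and in healthy libraries alone (difference 1.62, limma adjusted p = 0.498). The exact permutation test gave p = 0.0588 for 10 against 8 libraries, and within condition, at 5 against 4, p = 0.556 in healthy and p = 0.238 in myeloma-bearing mice. These permutation p-values too follow from how many stromal libraries had reads. The direction was the same in every one of these tests, which share the same stromal libraries with reads. It could hardly differ, since no osteoprogenitor library passed 0.255 RPKM.

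A shift of BAFF transcripts in stromal progenitors with myeloma was not shown beyond the spread of the libraries. The mean was 27.3 ± 29.2 RPKM (SD, n = 5) in myeloma-bearing mice and 8.11 ± 12.8 RPKM (n = 5) in healthy mice. The highest level and the second highest were both in myeloma-bearing mice (I and D), yet each group also had libraries at 0 and the groups overlapped. The difference was 1.54 (SE 1.41, limma adjusted p = 0.981), and an exact two-sided permutation test gave p = 0.365, where 5 against 5 can reach 0.00794. Single libraries moved the difference by over 1.5 times, to 0.84 without I and 0.95 without D, and to 2.36 without G or J and 2.35 without O, and it was not called in any of these fits. In that comparison limma called 0% of 8747 genes, with 437 at an unadjusted p under 0.05, and voom-limma on the recovered reads also called 0. The change with myeloma was not shown to differ between stromal and endothelial cells (difference of changes -1.53 in endothelial against stromal, SE 1.22, limma adjusted p = 0.770), nor between stromal progenitors and osteoprogenitors (1.61, SE 1.29, limma adjusted p = 1). Without the libraries of a letter these differences ran from -2.33 (G or J) to -0.82 (I) and from 0.92 (I) to 2.44 (O), and neither was called.

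Libraries with and without BAFF reads were set beside their depth and their markers. The 5 stromal libraries with Tnfsf13b had 17269127 to 34883291 reads on genes, and the 5 without had 18900537 to 29206724. Prrx1, a transcription factor of limb mesenchyme, was at 57.0 to 136 RPKM in the libraries with reads and 36.2 to 144 in those without. Pdgfra, a receptor found on mesenchymal progenitors, was at 37.9 to 98.1 RPKM with and 34.2 to 64.6 without. Depth and these genes overlapped between the libraries with and without BAFF reads. The 5 stromal markers together summed to 33049 to 66233 RPKM with and 51142 to 64937 without, and the lowest sum was in library I, which had the most BAFF. The 7 endothelial markers summed to 0.877 to 12.1 RPKM with (median 6.65) and 0.704 to 4.57 without (median 1.18). The part of these differences in the BAFF values was not tested.

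BAFF is also made by myeloid cells, so leukocyte markers were compared in the same libraries. The summed pan-leukocyte markers were 0 in C and O, 1.54 RPKM in D and 2.27 in I, all libraries with BAFF reads, and 141 in E. In the libraries without BAFF reads they were 0.281 RPKM in N, 1.33 in G, 2.04 in M, 19.7 in J and 113 in L. Macrophage and monocyte markers (5 of 9 listed genes in the table) summed to 1.26 RPKM in C, 5.43 in D, 222 in E, 3.73 in I and 23.2 in O, against 1.44 to 126 RPKM in the libraries without BAFF reads. Neutrophil markers (4 of 8 listed genes) summed to 0 to 8061 RPKM with and 0 to 7233 without. Osteoclast markers (3 of 6 listed genes) summed to 213 to 621 RPKM with BAFF reads (median 469) and 101.4 to 526.3 without (median 268), and B cell markers to at most 0.244 RPKM with (median 0.214) and 0.155 without (median 0.00963). The sums overlapped between libraries with and without BAFF reads for these 5 lists, and their part in the BAFF values was not tested.

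**Figure D2:**
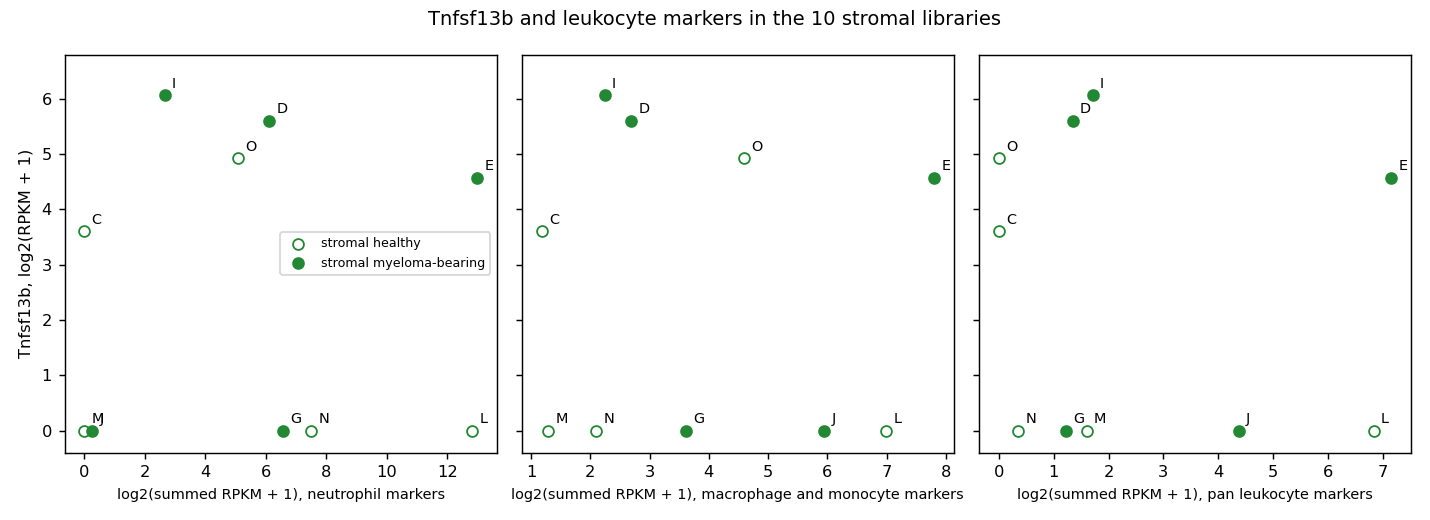
Tnfsf13b against the summed level of neutrophil, macrophage and monocyte, or pan-leukocyte markers in the 10 stromal libraries, both axes as log2(RPKM + 1). Open points are healthy and filled points myeloma-bearing mice. The 5 libraries with Tnfsf13b spread from 0 to 8061 RPKM of neutrophil markers, and library L with 7233 RPKM has no Tnfsf13b read.

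Without libraries L and E, Tnfsf13b remained called as lower in endothelial than in stromal libraries (difference -2.52, limma adjusted p = 0.00288) and higher in stromal progenitors than in osteoprogenitors (2.48, limma adjusted p = 0.0168). The change with myeloma in stromal progenitors was then 0.78 (SE 1.61, limma adjusted p = 0.995).

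Such a pattern was uncommon for a gene of this level. Of 3152 other genes whose mean in the 10 stromal libraries was within 2-fold of that of Tnfsf13b, 65 (2.06%) had no read in 5 or more of them, and the median gene was read in all 10. Its coefficient of variation was 1.33, and 16.9% of the like genes had one as large.

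**Figure D3:**
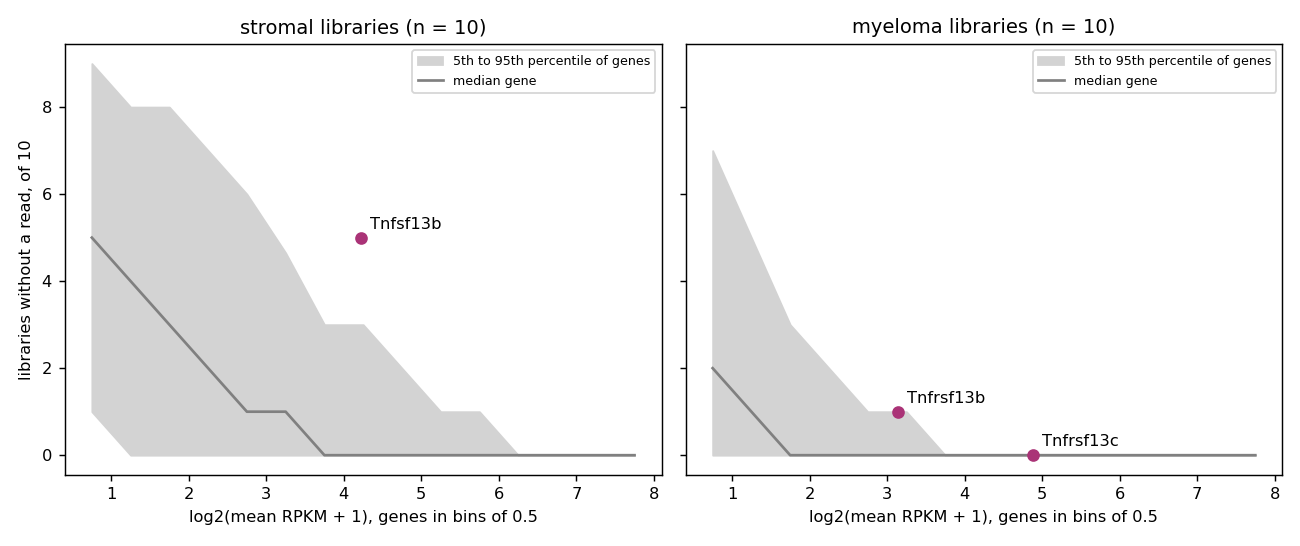
Number of the 10 stromal or 10 myeloma libraries without a read, against the mean level as log2(mean RPKM + 1). The grey line is the median gene in bins of 0.5 and the band spans the 5th to the 95th percentile of genes. Tnfsf13b, with 5 stromal libraries unread, lies above the band, and Tnfrsf13b, with 1 myeloma library unread, and Tnfrsf13c, with 0, lie within it.

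The BAFF receptor was the receptor transcript read in every myeloma library. In the bone lining Tnfrsf13c was at 23.6 RPKM in D (1105 reads), 19.5 in E (525 reads), 39.5 in G (1704 reads), 8.40 in I (408 reads) and 32.2 in J (821 reads). In the central marrow it was at 31.0 RPKM in D, 28.4 in E, 41.2 in G, 17.9 in I and 43.1 in J. Library I was the lowest in both places. In the 28 niche libraries Tnfrsf13c never passed 0.168 RPKM, the value of stromal library I (8 reads), and 21 of the 28 had no read.

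The mean level of Tnfrsf13c in bone-lining myeloma cells was 24.6 ± 11.9 RPKM (SD, n = 5). It exceeded that of myeloma-bearing endothelial libraries by 4.50 (SE 0.36, limma adjusted p = 8.3e-13), stromal libraries by 4.48 (SE 0.36, limma adjusted p = 9e-13) and osteoprogenitor libraries by 4.49 (SE 0.38, limma adjusted p = 5.4e-12). These comparisons called 30.1%, 30.6% and 27.8% of all 12683 genes. Tnfrsf13c passed the filter only through myeloma libraries, and niche groups near 0 lower the estimate of the spread that all groups share. With only the libraries of the groups compared in the fit, the SE was 0.53, 0.54 and 0.53. The limma adjusted p was then 3.03e-05, 2.16e-05 and 3.36e-05. The myeloma libraries did not overlap with any niche library. Against healthy osteoprogenitors, where all 4 libraries had 0 reads, the bone-lining mean was at least 229-fold higher, taking 3 reads in each library as the floor.

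TACI, the second receptor, was more uneven. In the bone lining Tnfrsf13b was at 3.80 RPKM in D (70 reads), 24.3 in E (257 reads), 20.7 in G (352 reads), 0.994 in I (19 reads) and 6.49 in J (65 reads). In the central marrow it was at 17.3 RPKM in D (278 reads), 0.965 in G (15 reads), 3.42 in I (51 reads) and 0.313 in J (5 reads), and E had 0 reads. Each place thus had libraries on either side of 3 RPKM, and E was the highest library of the lining and unread in the marrow. In the lining the order of TACI was that of the summed macrophage and monocyte markers, at 168 RPKM in I, 491 in D, 687 in J, 779 in G and 903 in E. In the marrow it was not, with the lowest sum, 409 RPKM, in D, where TACI was highest. The part of these markers in the TACI values was not tested.

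Niche cells carried no TACI transcript beyond 1 read in 28 libraries, in healthy osteoprogenitor library M (0.106 RPKM). Bone-lining myeloma cells, at a mean of 11.3 ± 10.5 RPKM (SD, n = 5), exceeded endothelial, stromal and osteoprogenitor libraries of myeloma-bearing mice by 3.05 each on the log2(RPKM + 1) scale, since all 3 groups had 0 reads (SE 0.52, 0.52 and 0.56). The limma adjusted p was 1.9e-05, 1.7e-05 and 4.8e-05. Tnfrsf13b passed the filter only through myeloma libraries, and groups at 0 reads lower the estimate of the spread that all groups share. With only the libraries of the groups compared in the fit, the SE was 0.67, 0.66 and 0.71. The limma adjusted p was then 0.00347, 0.00276 and 0.00488. Taking 3 reads in each library as the floor, the bone-lining mean was at least 51.4-fold higher than in endothelial, 52.5-fold higher than in stromal and 37.8-fold higher than in osteoprogenitor libraries of these mice. Central marrow myeloma cells exceeded the same groups by 1.54 each (limma adjusted p = 0.0261, 0.0262 and 0.0390), at least 20.1-fold, 20.5-fold and 14.8-fold. The marrow mean of 4.40 RPKM rests largely on library D (17.3 RPKM), and the marrow median was 0.965 RPKM. Library E of the marrow had 0 reads, so marrow and niche libraries overlapped. The SD of the marrow libraries was 1.69 on the log2 scale, and the fold limits were not computed without D.

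Receptor transcripts of myeloma cells were not shown to differ between the bone lining and the central marrow. Tnfrsf13b averaged 11.3 RPKM in the lining and 4.40 ± 7.34 RPKM (SD, n = 5) in the marrow, a difference of 1.51 (SE 0.80, limma adjusted p = 0.853), and the groups overlapped. Tnfrsf13c averaged 24.6 RPKM in the lining and 32.3 ± 10.2 RPKM (n = 5) in the marrow, a difference of -0.47 (SE 0.38, limma adjusted p = 0.942), again with overlap. In that comparison limma called 0.203% of 8857 genes. Leaving out both libraries of a letter in turn, the Tnfrsf13b difference ranged from 0.72 without the E libraries to 2.37 without the D libraries, and was not called in any of these fits.

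Per length, the BAFF receptor transcript was more abundant than that of TACI in 9 of 10 myeloma libraries, with bone-lining library E the exception (24.3 RPKM of Tnfrsf13b and 19.5 of Tnfrsf13c). The mean level of Tnfrsf13c was 2.19 times that of Tnfrsf13b in the lining and 7.34 times in the marrow. The marrow ratio rested on library D, without which it was 27.8, and the lining ratio was 3.24 without library E; without any other single library they were 5.46 to 7.73 and 1.83 to 2.36. The lengths that the table implies bear on this ratio. Tnfrsf13c was counted over 1906 bases, whereas Tnfrsf13b was counted over 750, which is its coding length of 747 bases plus the stop codon, so reads of its untranslated parts were not counted. Of 3187 genes with a mean within 2-fold of that of Tnfrsf13b in the 10 myeloma libraries, 2.82% had as large a coefficient of variation (1.19, against a median of 0.545). For Tnfrsf13c the coefficient was 0.394, close to the median of 0.390 among 2051 like genes.

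Myeloma cells themselves held little BAFF transcript. Tnfsf13b was at 2.96 RPKM in bone-lining library E (71 reads), 0.264 in J (6 reads) and 0.0240 in D (1 read), with 0 reads in G and I. In the central marrow it was at 0.825 RPKM in D (30 reads), 0.436 in E (20 reads) and 0.267 in I (9 reads), with 0 reads in G and J. The bone lining and the marrow overlapped and were not shown to differ by an exact two-sided permutation test (difference 0.13, p = 0.897, n = 5 and 5). The sign turned without the E libraries (-0.21) and with a pseudocount of 0.1 (-0.078). Library E also had the highest macrophage and monocyte sum of the bone-lining libraries, 903 RPKM, against 168 to 779 in the others, and its part in that value was not tested.

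Compared with stromal progenitors of myeloma-bearing mice, bone-lining myeloma cells had less Tnfsf13b, with a mean of 0.650 ± 1.30 RPKM (SD, n = 5) and a difference of -2.78 (SE 0.86, limma adjusted p = 0.0144). The stromal libraries G and J were at 0, so the groups overlapped. The call was lost with voom-limma, where the difference was -4.36 (SE 2.15, limma adjusted p = 0.129), without the D libraries of both groups (difference -2.08, limma adjusted p = 0.134) and without the I libraries (-1.96, limma adjusted p = 0.155). Against endothelial cells and osteoprogenitors of the same mice the difference was 0.45 (limma adjusted p = 0.783) and 0.46 (limma adjusted p = 0.786).

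**Figure D4:**
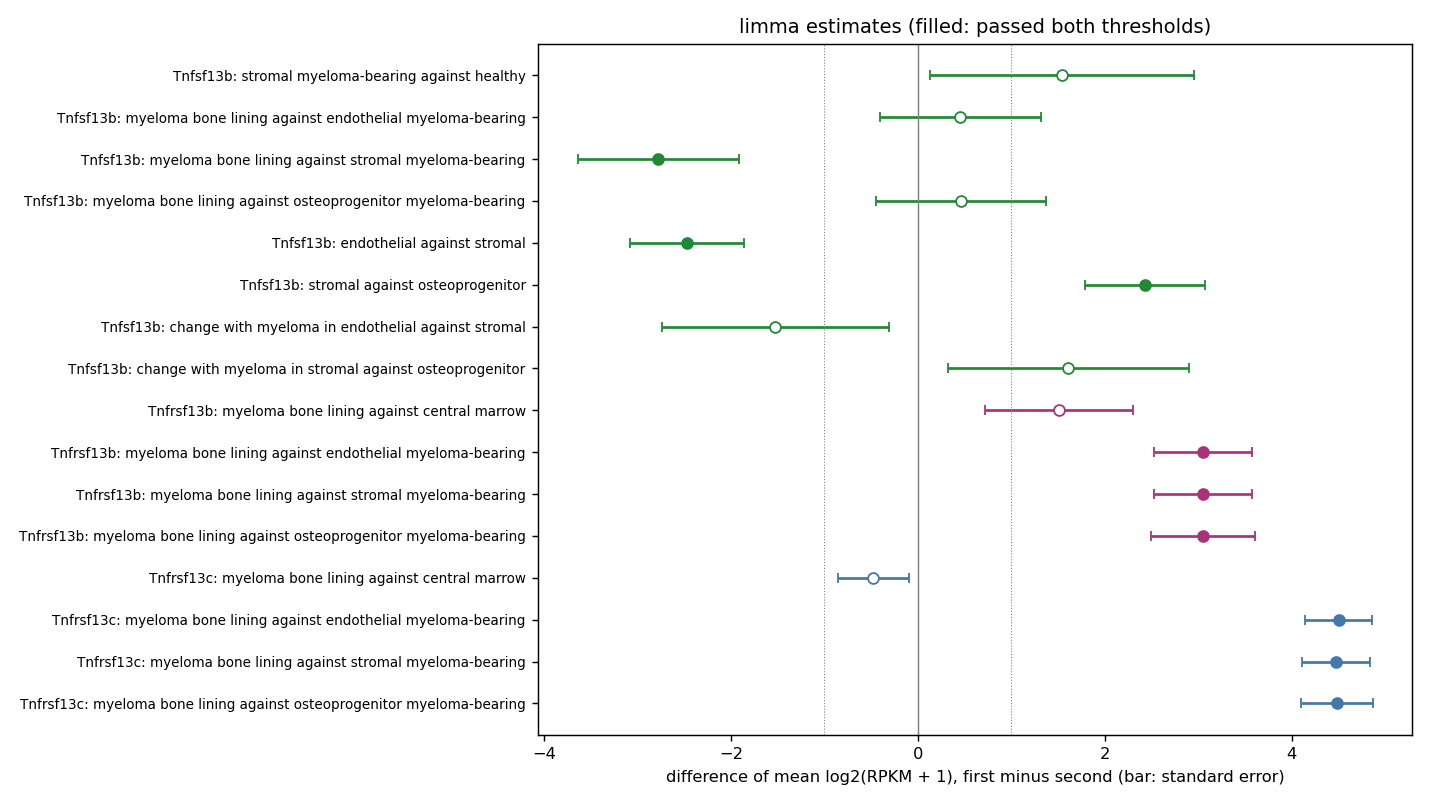
Differences of mean log2(RPKM + 1), first group minus second, with the standard error from limma, for each gene and comparison in which a library passed 1 RPKM. Filled points passed both thresholds and dotted lines mark a difference of 1. Both receptors sit at 3.05 to 4.50 in bone-lining myeloma against each niche type, and Tnfsf13b sits at -2.78 against stromal progenitors.

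The group means can be ordered. For Tnfsf13b the mean ran from stromal progenitors of myeloma-bearing mice (27.3 RPKM) to those of healthy mice (8.11), bone-lining myeloma (0.650) and central marrow myeloma (0.306), with all other groups at or below 0.0636 RPKM. The order is that of the means alone: the median of healthy stromal libraries was 0, below the 0.0240 RPKM of bone-lining and 0.267 RPKM of central marrow myeloma, and healthy stromal and myeloma libraries were not tested against each other. The neighbours at the top were not shown to differ beyond their spread, nor were the myeloma groups. For both receptors all 6 niche groups lay at or below 0.0337 RPKM, and the myeloma groups, not shown to differ beyond their spread, lay above them all.

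APRIL has a close neighbour on chromosome 11, Tnfsf12, which encodes the ligand TWEAK. It is annotated from 69686250 to 69695849 on the minus strand (ENSMUSG00000097328) and overlaps the read-through gene Tnfsfm13, which joins it to Tnfsf13, and the antisense gene Tnfsf13os, so its reads may be shared with them. Tnfsf12 was at 8.22 ± 9.12 RPKM in endothelial libraries (SD, n = 10), 4.89 ± 4.08 in stromal libraries (n = 10), 1.33 ± 2.17 in osteoprogenitor libraries (n = 8) and at most 0.753 RPKM in any myeloma library. It was lower in bone-lining myeloma than in endothelial cells by a difference of -3.30 (SE 0.74, limma adjusted p = 0.000745) and than in stromal progenitors by -1.70 (SE 0.74, limma adjusted p = 0.0901), and was not called against osteoprogenitors. In endothelial cells it was at 3.75 ± 4.77 RPKM in healthy and 12.7 ± 10.7 RPKM in myeloma-bearing mice (n = 5 each), and that comparison was not called. Its receptor gene, Tnfrsf12a, had its highest mean in stromal progenitors, at 216 ± 111 RPKM, beside 160 ± 96.6 RPKM in osteoprogenitors (n = 8), a comparison that was not called. Tnfrsf12a was lower in bone-lining myeloma than in stromal cells by -4.39 (SE 1.14, limma adjusted p = 0.00349).

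The rest of the pathway was followed through 8 lists with 76 genes in the table. Between bone-lining myeloma and niche cells of the same mice, 23 of 74 tested genes passed against endothelial cells (9 higher and 14 lower), 27 against stromal progenitors (11 higher and 16 lower) and 23 against osteoprogenitors (7 higher and 16 lower). These shares are 31.1%, 36.5% and 31.1%, near the share of all genes given above.

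Proteoglycan genes, which supply or build the heparan sulphate that APRIL docks on, were split between the cell types. Of 13 tested, 2 were higher and 5 lower in bone-lining myeloma than in endothelial cells, 2 higher and 7 lower than in stromal progenitors, and 1 higher and 7 lower than in osteoprogenitors. These are 53.8%, 69.2% and 61.5% of the list, beside 30.1%, 30.6% and 27.8% of all genes. Their median difference was -0.75, -2.12 and -3.78, against 0.17, 0.09 and 0.05 over all genes. Sdc1, syndecan-1 and a plasma cell marker, was higher in myeloma, at 53.9 ± 18.8 RPKM (SD, n = 5), by 4.02 (SE 0.65), 2.12 (SE 0.65) and 2.82 (SE 0.69). Sdc4, syndecan-4, was at 0.451 ± 0.361 RPKM in bone-lining myeloma and 514 ± 359 RPKM in stromal libraries (n = 10), a difference of -8.12 (SE 0.80) against stromal cells of the same mice. Sdc2 was lower than in stromal cells by -7.67 (SE 0.75), and Ext1, a heparan sulphate polymerase, by -5.43 (SE 0.72), with means of 0.0240 RPKM in the lining and 52.5 in stromal cells of myeloma-bearing mice. Among niche cells, 7 of the 13 were lower and 1 higher in endothelial than in stromal cells, where 15.5% of all genes were lower and 9.97% higher, and 8 were lower and 0 higher than in osteoprogenitors, a comparison that called 27.9% of all genes.

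Genes that cut the ligands or receptors were also tested. Of 9, which include Furin and the gamma-secretase subunits that can shed BCMA, 1 was higher in bone-lining myeloma than in stromal progenitors and 0 were called against endothelial cells or osteoprogenitors by limma. These are 11.1%, 0% and 0% of the list, beside 30.6%, 30.1% and 27.8% of all genes. The gene was Adam10, a surface protease, at 77.1 ± 39.8 RPKM in the lining and 21.7 ± 15.7 RPKM in stromal cells (difference 1.86, SE 0.54, limma adjusted p = 0.00939). Adam10 was also higher in endothelial than in stromal libraries by 2.44 (SE 0.38, limma adjusted p = 4.3e-06).

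Receptor adaptors, mainly the TRAF and IAP proteins that the receptors recruit, gave 0 calls of 8 tested in bone-lining myeloma against each niche type by limma, with medians of -0.26, -0.07 and -0.25. Birc2, a cellular IAP, was the highest of them in bone-lining myeloma (33.8 ± 15.2 RPKM, n = 5). Of 13 NF-kB genes, 1 was higher in myeloma than in endothelial cells, 2 were higher and 1 lower than in stromal cells, and 1 was higher than in osteoprogenitors. These are 7.69%, 23.1% and 7.69% of the list, below the 30.1%, 30.6% and 27.8% of all genes, and the genes named next are single calls from it. Nfkb2, of the non-canonical pathway that the BAFF receptor uses, was at 3.75 ± 2.45 RPKM in the lining and 0.0390 ± 0.0526 in stromal cells of myeloma-bearing mice (difference 2.01, SE 0.63, limma adjusted p = 0.0162). Rel, the c-Rel subunit, was higher than in endothelial cells by 2.59 (SE 0.73) and in stromal cells by 2.12 (SE 0.73). Nfkbia, the inhibitor that NF-kB induces, was lower than in stromal cells by -1.30 (SE 0.37).

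Survival and plasma cell genes were called higher in myeloma more often than lower. Of 8 tested, 5 were higher and 1 lower than in endothelial cells, 5 higher and 0 lower than in stromal cells, and 4 higher and 0 lower than in osteoprogenitors, with medians of 1.83, 1.79 and 1.67 against 0.17, 0.09 and 0.05 over all genes. Of all genes, 17.0%, 15.6% and 13.1% were higher and 13.1%, 15.0% and 14.7% lower in these comparisons. Irf4, a factor that plasma cells need, was at 70.3 ± 36.5 RPKM in the lining and higher than in stromal cells by 5.91 (SE 0.48, limma adjusted p = 1.2e-12). Prdm1, which directs plasma cell differentiation, was higher by 4.74 (SE 0.75), and Xbp1, which expands the secretory machinery, by 2.15 (SE 0.35). Pim2, a survival kinase, was at 9.49 ± 3.22 RPKM in the lining and was higher than in endothelial cells by 3.33 (SE 0.65). Against stromal cells Pim2 was called higher on the log2 scale (1.47, SE 0.65, limma adjusted p = 0.0947), although its stromal mean of 10.1 ± 16.2 RPKM was above that of the lining. The list was written with the plasma cell nature of the line in mind, so its direction is not independent evidence.

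Of 16 other receptors tested, 1 was higher in bone-lining myeloma against each niche type, and 6, 4 and 5 were lower than in endothelial, stromal and osteoprogenitor cells. These are 43.8%, 31.2% and 37.5% of the list, beside 30.1%, 30.6% and 27.8% of all genes, so the share against stromal cells was that of the background. Tnfsf10 (TRAIL) was at 37.2 RPKM in endothelial libraries and higher than in stromal cells by 4.77 (SE 0.33, limma adjusted p = 1.3e-14). Tnfsf11 (RANKL) was at 21.4 ± 11.7 RPKM in osteoprogenitors of myeloma-bearing mice (n = 4) and 2.52 ± 3.13 in those of healthy mice (n = 4), and that comparison was not called. Over both conditions it was lower in stromal cells, by a difference of -1.78 (SE 0.47, limma adjusted p = 0.0135). Tnfrsf11b (osteoprotegerin) was at 445 ± 88.7 RPKM in stromal libraries (n = 10), and Tnfrsf18 (GITR) at 76.2 ± 34.8 RPKM in bone-lining myeloma (n = 5), higher than in stromal cells by 6.11 (SE 0.63, limma adjusted p = 4.4e-10).

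**Figure D5:**
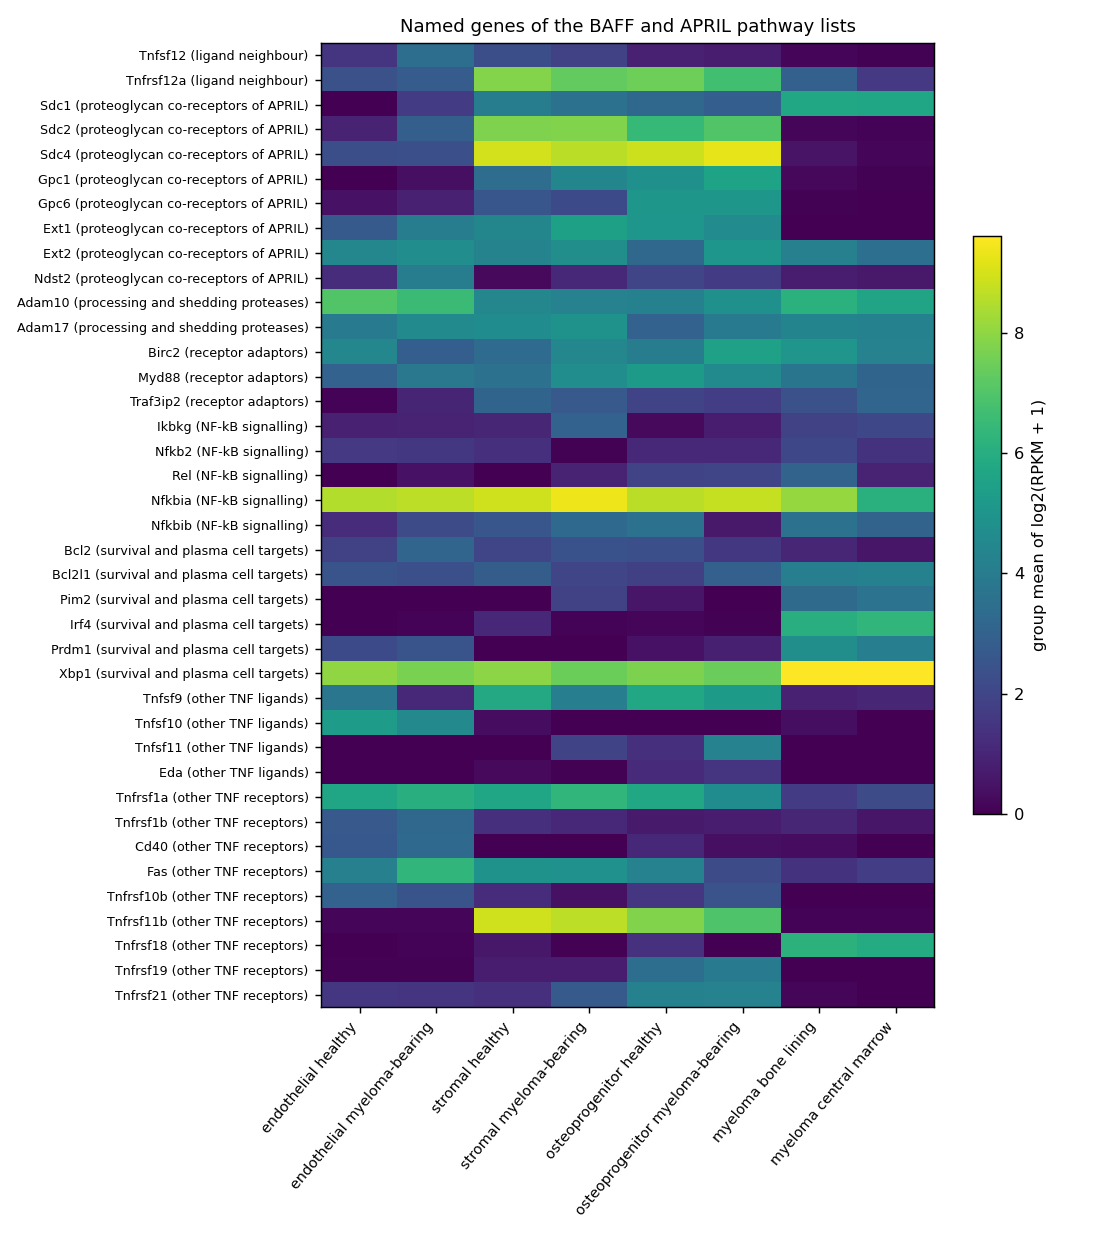
Group means of log2(RPKM + 1) for the named genes of the pathway lists, 1 row per gene and 1 column per group, with colour giving the level. Sdc4 and Sdc2 are bright in stromal progenitors and osteoprogenitors, and Sdc1, Irf4 and Tnfrsf18 in both myeloma groups.

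With myeloma in the marrow, 0 of 51 tested pathway genes passed in endothelial cells, 0 of 54 in stromal progenitors and 0 of 52 in osteoprogenitors by limma, with 3, 4 and 5 at an unadjusted p under 0.05 and 0 in each by voom-limma. The background was 0% of 7880 genes in endothelial cells, where 414 had an unadjusted p under 0.05 and voom-limma called 4. It was 0% of 8747 in stromal progenitors and 0.0115% of 8664 in osteoprogenitors. With all 38 libraries in the fit, 150, 28 and 24 genes were called in these cell types. The paper, with voom-limma on counts at these thresholds, reported more changed genes in each of them. The absence of calls here therefore does not show that the niche was unchanged. Between bone-lining and central marrow myeloma cells, 1 of 49 passed (2.04%), beside 0.203% of all 8857 genes tested. This was Nfkbia, higher in the lining, at 274 ± 60.5 RPKM against 68.4 ± 11.9 RPKM (SD, n = 5 each), by 1.97 (SE 0.22, limma adjusted p = 0.000722).

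The genes most like each member over the 38 libraries were taken by Pearson's r of log2(RPKM + 1) among 12682 other genes. The libraries share cell types, so these values are a description. For Tnfsf13b they were Glis1 (r = 0.80), a Krüppel-like zinc finger factor, Fgf9 (r = 0.77), a fibroblast growth factor, and Wdr70 (r = 0.76). Glis1 averaged 3.43 RPKM and Fgf9 18.8 RPKM in the 10 stromal libraries. For Tnfrsf13b they were Traf3ip3 (r = 0.87), Evi2b (r = 0.87) and 4930509E16Rik (r = 0.87). For Tnfrsf13c they were BC061194 (r = 0.99), Csn3 (r = 0.99), a milk casein gene, and Ear5 (r = 0.99), an eosinophil-type ribonuclease gene. Csn3 averaged 194 RPKM in bone-lining and 178 RPKM in central marrow myeloma cells and never passed 0.578 RPKM in a niche library.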

How the data were processed

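RNA was measured by SmartSeq2 and single-end sequencing. According to the labels and the methods, the authors aligned reads with STAR 2.4.0 to GRCm38 (mm10), counted them with featureCounts of Subread 1.4.5-p1 and dropped genes unless 4 or more samples exceeded 1 CPM. The deposited values are RPKM computed by the authors with edgeR, so they are adjusted for gene length and for a library size scaled by factors.

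Each RPKM value is a whole multiple of the value of 1 read. Recovered reads were whole, within 0.01 reads, for 100% of values, and scaling factors of 0.627 to 1.6 were implied. Totals of these reads set the depth and a floor of 3 reads.

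Tests used limma 3.58.1 in R 4.3.3 on log2(RPKM + 1) with a trend, over genes above 1 RPKM in at least 4 libraries. Comparisons within a cell type, and of the myeloma sites, used their own libraries, and all others a fit of 8 groups over 38 libraries. With Benjamini-Hochberg adjustment, calls needed p below 0.1 together with a log2 difference beyond 1 in size, which are the thresholds of the study. No value is given where no library compared passed 1 RPKM. For BAFF between myeloma sites, which the filter removed, an exact permutation test was used. Named genes were the members, called genes of the pathway lists ranked by size, the highest gene of each list and the 3 most like genes, and Prrx1, Pdgfra and the 2 B cell markers were named outside this rule. The members and lists were chosen with earlier results of these data known. Tests were checked on simulated data. Gene positions come from GENCODE vM21, and start regions from RefSeq. Alternatives were the replicate block, voom-limma on recovered reads, another pseudocount, filter, threshold or set of libraries, and leaving out the libraries of each letter. Letters were not shown to pair libraries (same-letter correlations of deviations from -0.0488 to 0.0670).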

Additional observations from a re-analysis of the deposited data

Results flagged for a closer look

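In 5 of 11 tested combinations of a gene and a group, the highest library lay far from the others of its group, by Dixon's gap over range (critical value 0.829 for 4 libraries and 0.71 for 5). Chance flags about 1 in 20 groups if values are normal, which these are not: in healthy osteoprogenitors (BAFF) and stromal cells of myeloma-bearing mice (BAFF receptor) all other libraries had 0 reads, which fixes the result, so the 5 cannot be set against that rate. BAFF was at 2.96 RPKM (71 reads) in bone-lining myeloma library E, with a gap of 0.911 of the range. TACI was at 17.3 RPKM (278 reads) in central marrow myeloma library D, with a gap of 0.803. The other 3 rest on 8 reads or fewer: BAFF at 0.255 RPKM (7 reads) in healthy osteoprogenitor library N, the BAFF receptor at 0.135 RPKM (6 reads) in healthy endothelial library M, and the BAFF receptor at 0.168 RPKM (8 reads) in stromal library I of a myeloma-bearing mouse.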

How the results depend on the processing

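Of 259 alternative values for 17 results, 250 kept their direction and their side of the threshold, 7 fell short of the threshold and 2 changed sign. For BAFF, the difference of endothelial from stromal libraries lost its call in healthy libraries alone (-1.71). Stromal against osteoprogenitor libraries lost it when only those libraries entered the fit (2.43, adjusted p = 0.113), in healthy libraries alone (1.62), and missed the threshold of 0.05 set for a permutation p by the exact permutation test (2.43, p = 0.0588), added after the data were seen. Bone-lining myeloma against stromal libraries lost it with voom-limma (-4.36) and without the D or the I libraries, with a range of -3.56 to -1.96 when the libraries of each letter were left out. BAFF between myeloma sites, which was not called, ran from -0.21 (without both E libraries) to 0.37 when those of each letter were left out, and was -0.078 with a pseudocount of 0.1. The cause was not tested. Leaving out the stromal libraries L and E was also chosen after the data were seen.

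With the letter as a replicate block, TACI between myeloma sites kept a difference of 1.51 (limma adjusted p = 0.889), BAFF in bone-lining myeloma against stromal cells was -2.78 (limma adjusted p = 0.0132), and no call changed. Over all genes, calls ran from 0 to 150 with myeloma in endothelial cells (0 in the reported fit), 0 to 28 in stromal progenitors (0), 0 to 24 in osteoprogenitors (1) and 1 to 23 between myeloma sites (18). A comparison of BAFF with APRIL within libraries was planned and not run, as APRIL was not analysed here. Depth limits the niche values of the receptors, which rest on 0 to 8 reads.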
